A study of Mus musculus with 12 samples.

Results

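The 10 genes described here are imprinted genes known from work on stem cell quiescence: H19, Igf2, Dlk1, Meg3, Cdkn1c, Grb10, Peg3, Ndn, Mest and Plagl1. They were chosen by name, all 10 were found by their Ensembl identifiers, and they are 10 of the 56748 genes counted in each library. RNA was sequenced from donor-derived Lin-Sca+Kit+ (LSK) cells, the bone marrow fraction that holds haemopoietic stem and multipotent progenitor cells, in 12 libraries. Irradiated B6.SJL recipients aged 8 to 12 weeks, which carry CD45.1, had received marrow of CD45.2 SCLtTA/BCR-ABL double transgenic (DTG) donors, and all of them drank tetracycline (TET) for the first 2 weeks. In the 6 CML 2wk libraries TET was then withdrawn for 2 weeks, which lets the BCR::ABL1 oncogene of chronic myeloid leukaemia be expressed. In the 6 CTRL libraries TET was given for 2 weeks and not withdrawn. Whether these were the first 2 weeks or 2 further ones is not given. Time since transplant may therefore differ between the groups and could not then be told apart from BCR::ABL1. Both groups carried the same transgenes, were irradiated with 2 doses of 4.25 Gy given 3 h apart, and were sorted in the same way.

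Several features limit the groups as a model. The tetracycline transactivator is driven by SCL regulatory elements and is active in stem and progenitor cells, so the oncogene is not restricted to the stem cell. Donor marrow came from a frozen pool of many DTG mice of both sexes, and recipients keep CD45.1 cells of their own that the CD45.2 gate has to remove. The labels do not say that each library is a separate mouse, so p-values measure the spread between these libraries only. Sex is labelled male for every CTRL and female for every CML 2wk library, so label and group cannot be told apart, and whether it is that of donor or recipient is not given. Xist, the RNA that coats the inactive X chromosome, was counted at 3683 to 4574 CPM (counts scaled to a common library size) in CTRL and at 2152 to 3539 in CML 2wk, while the Y-linked Ddx3y had at most 24 counts in a CTRL library. In CML 2wk, Ddx3y had 202 counts in replicate 2, 21 in replicate 4 and 0 in the other 4. The Xist level goes against the male label of CTRL, and the Y-linked counts of CML 2wk replicate 2 against its female label. The 21 counts of CML 2wk replicate 4 are near the 24 of CTRL replicate 1, so they are less clear.

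Imprinted genes are expressed from 1 parental copy, because DNA methylation laid down in egg or sperm marks the copies differently. H19, Meg3, Cdkn1c and Grb10 are mainly expressed from the maternal copy, and Igf2, Dlk1, Peg3, Ndn, Mest and Plagl1 from the paternal copy. Many of them act on growth, and in the haemopoietic system the H19/Igf2 and Dlk1/Meg3 loci and the cell cycle inhibitor Cdkn1c are known for their part in keeping long-term stem cells quiescent. Total counts per gene do not tell the parental copies apart.

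CTRL libraries held 22804754 to 41832868 counts and CML 2wk libraries 16150817 to 25070105. A floor of 3 counts therefore lay at 0.0717 to 0.132 CPM in CTRL and at 0.12 to 0.186 CPM in CML 2wk. Mitochondrial transcripts took 0.816% to 1.29% of counts in CTRL and 2.26% to 2.97% in CML 2wk. Of the sorting markers, Kit was lower in CML 2wk by edgeR's quasi-likelihood test, Ptprc, which encodes CD45, was higher, and Ly6a, which encodes Sca-1, did not pass the test. Replicates 2 and 4 of CML 2wk stood apart in markers of mesenchymal stroma, a cell type that the sort for CD45.2 should remove. The summed level of 16 such markers was 115 to 142 CPM in CTRL, 100 to 119 CPM in the other 4 CML 2wk libraries, 454 CPM in replicate 4 and 1153 CPM in replicate 2. Pdgfrb alone, with a median of 75.1 CPM in CTRL and 74.6 CPM in CML 2wk, made up much of the lower sums. Results that rest on these 2 libraries are also given without them. The groups still differed in stroma then: of 11 tested stromal markers edgeR called 7 lower in CML 2wk and 1 higher, where 32% of all genes were called each way. In these bulk samples, fewer cells of a type and less RNA per cell cannot be told apart.

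The members differed widely in level. Per exon length, in reads per kilobase of exon scaled to library size (RPKM), the CTRL median was highest for Grb10 at 3.26, followed by Cdkn1c at 1.66, Mest at 0.57, Ndn at 0.303 and Dlk1 at 0.0748. The CTRL ranges of these 5 did not overlap each other. H19, Plagl1, Meg3, Peg3 and Igf2 followed with medians of 0.0188 RPKM or less, and from Dlk1 downwards neighbours in the order overlapped in their ranges. Against the 17806 tested genes with a known length, Grb10 stood at percentile 44.7, Cdkn1c at 32.3, Mest at 15.1, Ndn at 7.76 and Dlk1 at 0.797.

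The comparison of CML 2wk with CTRL asks which of these genes differed once BCR::ABL1 had been expressed for 2 weeks. Only Grb10, Cdkn1c, Mest, Ndn and Dlk1 passed the filter on low counts, Ndn through its CTRL libraries, where it was high. Of these 5, Grb10 and Ndn fell, none rose, and Cdkn1c, Mest and Dlk1 did not pass edgeR's quasi-likelihood test. Across all 18438 genes tested, 59.5% were called, 30.6% higher and 29% lower in CML 2wk, so 2 called of 5 is below the background share. The median log2 fold change was -0.37 over the 5 members and 0.07 over all genes tested. Without CML 2wk replicates 2 and 4 it was -0.78 over the 5 members, of which edgeR then called 3 lower (Ndn, Cdkn1c and Grb10) and 0 higher, where 32% of all genes were called in each direction. Replicates 2 and 4 were the highest CML 2wk libraries for Ndn, and replicate 2 was the highest for Cdkn1c, so those calls were favoured by the choice. None of the 10 members had groups that did not overlap, against 37.6% of all genes tested, 17% higher and 20.6% lower.

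**Figure D1:**
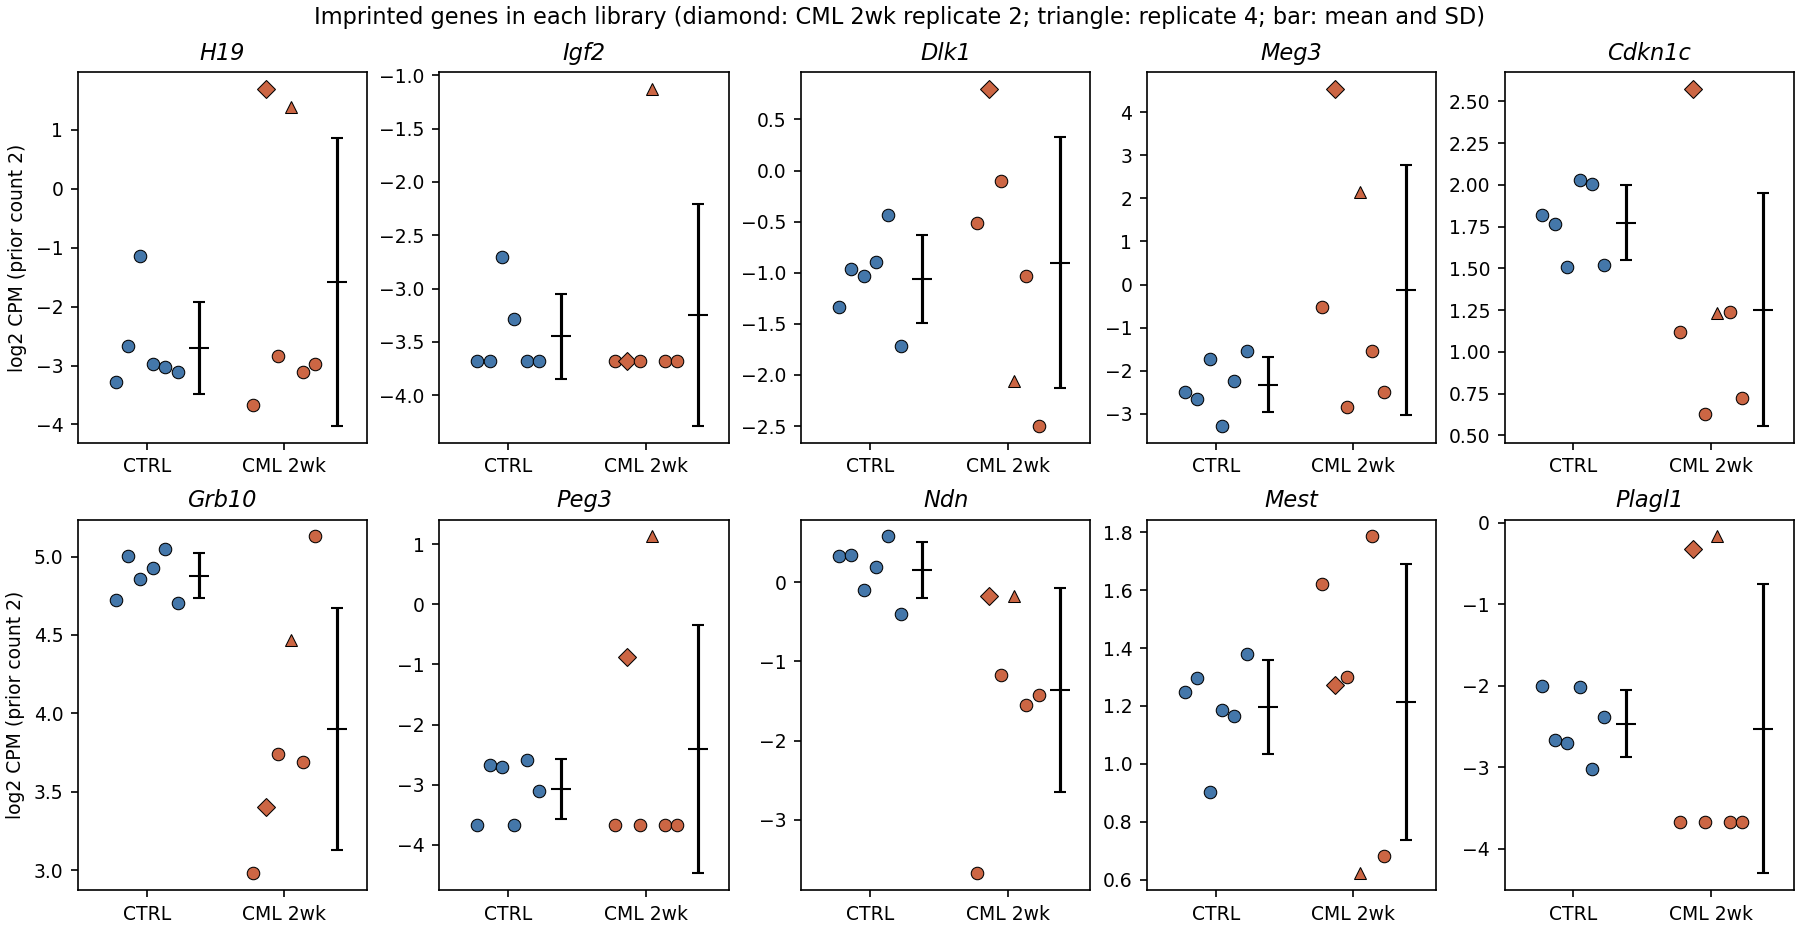
Level of each of the 10 imprinted genes as log2 CPM (prior count 2, own axis per gene) in 6 CTRL and 6 CML 2wk libraries, with mean and SD at the right of each group. CML 2wk replicate 2 (diamond) and replicate 4 (triangle) are the highest libraries for H19, Meg3, Peg3 and Plagl1, whereas Grb10 is lower in 5 of 6 CML 2wk libraries than in any CTRL library.

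Grb10, an adaptor protein that binds the insulin and IGF1 receptors and dampens their signal, was the most highly expressed member and fell in CML 2wk. Its level scaled by TMM factors was 26 to 33.1 CPM in CTRL, with a median of 29.7 CPM. In CML 2wk it was 7.81 CPM at the lowest, 13 CPM at the median and 34.9 CPM at the highest. Replicates 1 to 5 of CML 2wk, at 7.81 to 22 CPM, all lay below the lowest CTRL library, and replicate 6 alone, at 34.9 CPM, lay above the highest. The log2 fold change was -0.80 (SE 0.279) with an adjusted p of 0.0226 (edgeR quasi-likelihood test, Benjamini-Hochberg). An exact permutation test of the difference in mean log2 CPM, which was -0.98, gave a two-sided p of 0.0216. Over 23 settings of the edgeR and DESeq2 fits, Grb10 was called in 23, with log2 fold changes from -1.18 to -0.66. Some of these calls were close to the threshold of 0.05. The adjusted p in edgeR was 0.04999 without CML 2wk replicate 3 and 0.049 without CML 2wk replicate 5. Without replicate 6 of CML 2wk the groups did not overlap and the log2 fold change was -1.16. Without replicates 2 and 4 it was -0.78 in edgeR (adjusted p = 0.030), and the exact permutation p was 0.0667, where the smallest p that 4 against 6 libraries allow is 0.00952.

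Ndn encodes necdin, a p53-binding growth suppressor of the MAGE family that is known to restrain the cycling of haemopoietic stem cells. Its counts in CTRL replicates 1 to 6 were 48, 30, 23, 44, 32 and 18, and in CML 2wk they were 0, 19, 6, 15, 7 and 6. The scaled level was 0.678 to 1.42 CPM in CTRL (mean 1.06 ± 0.261 SD, n = 6) and 0 to 0.811 CPM in CML 2wk (mean 0.424 ± 0.324 SD, n = 6). The groups overlapped only through CML 2wk replicates 2 and 4, which lay above CTRL replicate 6, and the other 4 CML 2wk libraries lay below every CTRL library. Ndn fell by 1.30 on the log2 scale (SE 0.472), with an adjusted p of 0.0276 (edgeR quasi-likelihood test). The exact permutation test gave a two-sided p of 0.00866. Without replicates 2 and 4 the log2 fold change was -2.17 (SE 0.441, adjusted p = 6.32e-04 in edgeR). These were the 2 highest CML 2wk libraries, so leaving them out was bound to widen the difference. That fit therefore adds nothing to the ranges given above. Over 22 settings of the edgeR and DESeq2 fits that tested it, Ndn was called in 16. The call was lost, with adjusted p of 0.0503 to 0.0585 in edgeR, without CTRL replicate 1, CTRL replicate 5, CML 2wk replicate 5 or CML 2wk replicate 6. It was also lost without both sixth libraries (adjusted p = 0.0514 in edgeR). With counts thinned to the smallest library, which evens out depth, it was lost too (adjusted p = 0.0519 in edgeR).

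Cdkn1c encodes p57, a cyclin-dependent kinase inhibitor that long-term stem cells use to stay out of cycle. CTRL libraries held 74 to 166 counts and a scaled level of 2.76 to 4.01 CPM (mean 3.38 ± 0.536 SD, n = 6). In CML 2wk the level was 2.09, 5.87, 1.47, 2.27, 2.28 and 1.58 CPM in replicates 1 to 6. Replicate 2 was above every CTRL library, and the other 5 were below every CTRL library. With all 12 libraries the log2 fold change was -0.37 (SE 0.299, adjusted p = 0.301 in edgeR), and Cdkn1c was not called. Without CML 2wk replicate 2 it was -0.80 (SE 0.182, adjusted p = 0.00134 in edgeR). Without replicates 2 and 4 it was -0.86 (SE 0.194, adjusted p = 0.00138 in edgeR). The exact permutation p for the 4 against 6 libraries was then 0.00952, the smallest they allow. That p was fixed once replicate 2 was left out, since the other CML 2wk libraries all lay below CTRL. It therefore adds nothing to the ranges given above. The edgeR fits without replicate 2 likewise left out the highest CML 2wk library, so their smaller p-values add nothing either. That replicate 2 is also the library highest in stromal markers is a measured fact, and the part of such cells in its Cdkn1c level was not tested. Cdkn1c shares 625 exonic bases, 30.7% of its own exons in GENCODE M21, with Gm44732 on the opposite strand. Without a known strand setting its counts are uncertain to that extent.

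Mest and Dlk1 were counted in every library without passing the test. Mest, an alpha/beta hydrolase-like protein of mesoderm, was at 1.79 to 2.53 CPM in CTRL (mean 2.23 ± 0.249 SD, n = 6) and at 1.46 to 3.37 CPM in CML 2wk (mean 2.35 ± 0.766 SD, n = 6). Both the highest and the lowest library belonged to CML 2wk. Its log2 fold change was 0.08 (SE 0.217, adjusted p = 0.766 in edgeR). Dlk1, a transmembrane protein related to Notch ligands, had 6 to 19 counts in CTRL and 2 to 39 in CML 2wk, with the 39 in replicate 2. Its log2 fold change was 0.62 (SE 0.527, adjusted p = 0.324 in edgeR), 0.21 (adjusted p = 0.702) without replicates 2 and 4, and 0.01 (adjusted p = 0.985) without replicate 2 alone. Mest shares 912 exonic bases, 23.1% of its own exons in GENCODE M21, with Copg2 on the opposite strand, and the strand setting of the counting is not given in the sources used here, so its counts are uncertain.

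**Figure D2:**
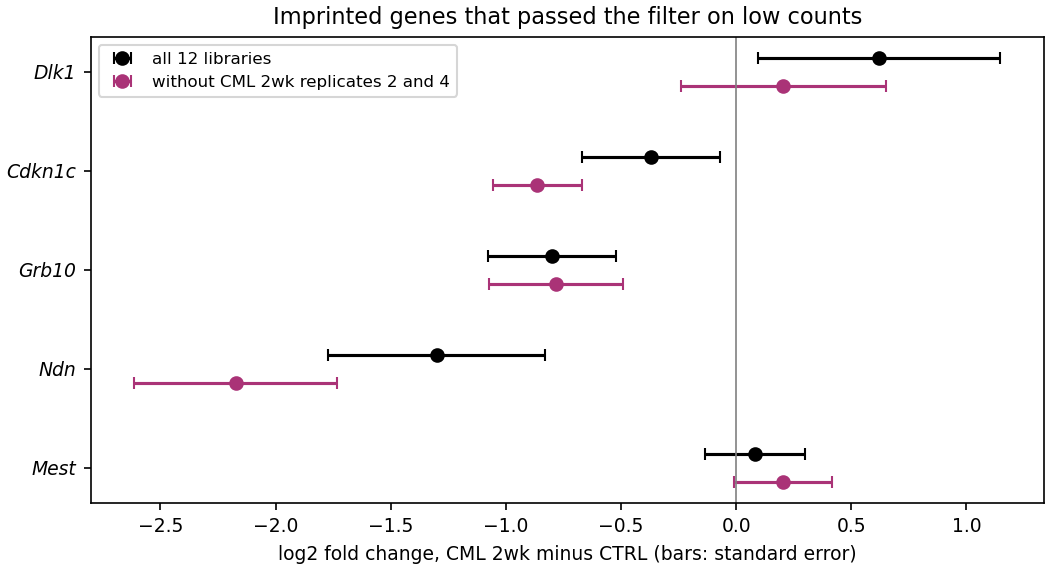
Log2 fold change (CML 2wk minus CTRL) with its standard error from edgeR for the 5 imprinted genes that passed the filter, with all 12 libraries (black) and without CML 2wk replicates 2 and 4 (purple). Grb10 stays near -0.80, Ndn moves from -1.30 to -2.17 and Cdkn1c from -0.37 to -0.86, and Dlk1 and Mest have error bars at or across 0 without those libraries.

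Promoter sequence is shown for 4 members. These are Grb10 and Ndn, which fell, and Meg3 and Plagl1, which were below the filter and counted mainly in 2 CML 2wk libraries. Each is the 250 bases upstream of a RefSeq transcript start on GRCm38.p6, written 5′ to 3′ on the gene's strand, with CG dinucleotides, the targets of imprint methylation, in capitals. The counts themselves were made on another build, and for Grb10 and Meg3 the window shown is the more CG-rich of the 2 listed.
Grb10, chr11:12037421-12037670, minus strand: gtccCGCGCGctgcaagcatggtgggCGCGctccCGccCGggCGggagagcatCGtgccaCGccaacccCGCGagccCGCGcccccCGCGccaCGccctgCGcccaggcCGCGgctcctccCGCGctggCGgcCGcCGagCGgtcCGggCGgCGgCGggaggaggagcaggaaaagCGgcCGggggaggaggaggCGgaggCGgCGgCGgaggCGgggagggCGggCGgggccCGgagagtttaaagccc
Ndn, chr7:62348027-62348276, plus strand: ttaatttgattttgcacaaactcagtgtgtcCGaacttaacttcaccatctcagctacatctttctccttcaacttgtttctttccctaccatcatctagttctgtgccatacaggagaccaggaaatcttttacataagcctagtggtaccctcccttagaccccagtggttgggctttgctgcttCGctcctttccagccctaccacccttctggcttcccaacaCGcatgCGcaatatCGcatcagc
Meg3, chr12:109540746-109540995, plus strand: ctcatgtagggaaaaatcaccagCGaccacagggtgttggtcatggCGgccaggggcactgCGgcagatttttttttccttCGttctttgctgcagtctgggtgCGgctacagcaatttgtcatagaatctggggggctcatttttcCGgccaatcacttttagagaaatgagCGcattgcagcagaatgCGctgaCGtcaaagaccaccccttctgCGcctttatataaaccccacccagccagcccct
Plagl1, chr10:13090582-13090831, plus strand: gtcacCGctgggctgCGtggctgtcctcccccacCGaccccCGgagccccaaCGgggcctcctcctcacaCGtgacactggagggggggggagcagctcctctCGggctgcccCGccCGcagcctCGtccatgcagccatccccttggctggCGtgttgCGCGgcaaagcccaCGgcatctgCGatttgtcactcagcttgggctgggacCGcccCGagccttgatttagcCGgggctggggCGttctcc
Over the full 300-base window, which adds 50 bases after the start, Grb10 held 45 CG dinucleotides (98.2nd percentile of 32851 mouse promoter windows), Plagl1 26 (83.8th), Meg3 13 (62.9th) and Ndn 11 (59.5th), against a median of 7 over all windows. The windows not shown held 9 for Grb10 (55.4th percentile) and 1 for Meg3 (9.8th). The ZFP57 motif TGCCGC, searched on both strands, occurred in 6 of the 15 windows listed for 8 members and in 11.6% of all windows, although 2 of the 6 are Mest windows that overlap almost wholly. ZFP57 protects imprint methylation in the early embryo, and a match here is a description of letters and not a bound site. H19 and Cdkn1c had no window in the table used.

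The remaining 5 members were below the filter, and nearly all of their CML 2wk counts came from replicates 2 and 4. H19, a maternally expressed non-coding RNA that is the precursor of miR-675, had counts of 1, 2, 10, 2, 1 and 1 in CTRL replicates 1 to 6 and of 0, 74, 1, 47, 1 and 1 in CML 2wk. Meg3, the maternally expressed non-coding RNA of the Dlk1 locus, had 4, 2, 6, 1, 3 and 7 counts in CTRL and 11, 544, 1, 81, 7 and 2 in CML 2wk. Plagl1, a zinc finger factor that regulates other imprinted genes, had 7, 2, 2, 7, 1 and 3 counts in CTRL and 0, 17, 0, 15, 0 and 0 in CML 2wk. For each of the 3, CML 2wk replicates 2 and 4 were the 2 highest of all 12 libraries. Peg3, a large zinc finger protein, had at most 2 counts in a CTRL library and 11 and 39 counts in CML 2wk replicates 2 and 4, with 0 in the other 4. Igf2, the fetal growth factor encoded beside H19, had at most 2 counts in a CTRL library and 7 in CML 2wk replicate 4, with 0 in the other 5. In GENCODE M21 it shares 3596 exonic bases, 62.8% of its own exons, with Gm49394 on the same strand. How reads on such shared bases were counted is not given, so the low counts of Igf2 are uncertain.

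Replicates 2 and 4 thus held 121 of the 124 CML 2wk counts of H19, 625 of 646 of Meg3, 50 of 50 of Peg3, 32 of 32 of Plagl1 and 7 of 7 of Igf2. By CPM, their share was 97.5% for H19, 96.4% for Meg3 and 100% for the other 3, where an even spread over 6 libraries gives 33.3%. It was 63.7% for Ndn, 52.3% for Cdkn1c, 47.8% for Dlk1, 32.1% for Grb10 and 27% for Mest. The median over all genes tested was 33.1% and the 99th percentile 77%. Among the 3626 genes that were below the filter with at least 50 counts, the median was 35.4% and 8.38% had a share of 96% or more.

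The differences of these 5 genes between groups rest on those libraries. The difference in mean log2 CPM, CML 2wk minus CTRL, was 2.21 for Meg3 (two-sided exact permutation p = 0.0974), 1.12 for H19 (exact p = 0.381), 0.66 for Peg3 (exact p = 0.5), 0.20 for Igf2 (exact p = 1.0) and -0.06 for Plagl1 (exact p = 0.948). The smallest p that 6 against 6 libraries allow is 0.00216, and exact p-values were computed for all 10 members and are not adjusted. Without replicates 2 and 4 the differences were 0.48 for Meg3 (exact p = 0.429), -0.45 for H19 (exact p = 0.333), -0.61 for Peg3 (exact p = 0.143), -0.23 for Igf2 (exact p = 0.524) and -1.21 for Plagl1 (exact p = 0.00952). Plagl1 was at 0 counts in all 4 remaining CML 2wk libraries and at 1 to 7 counts in CTRL, which fixes that exact p at its smallest. Most of these CTRL counts were at or under the floor of 3 counts. When the filter was dropped, edgeR called Meg3 (log2 fold change 5.04, adjusted p = 0.00321) and H19 (3.17, adjusted p = 0.0373) higher beside Grb10 and Ndn lower, where 15.4% of 34929 genes were called higher and 17.2% lower. DESeq2 called the same 4 in the same directions, where 23.9% of 25852 genes were called higher and 22.3% lower. Without the filter and without replicates 2 and 4, neither H19 nor Meg3 was called, and edgeR called Ndn, Cdkn1c, Plagl1 and Grb10 lower, where 19.4% of 34224 genes were called lower.

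**Figure D3:**
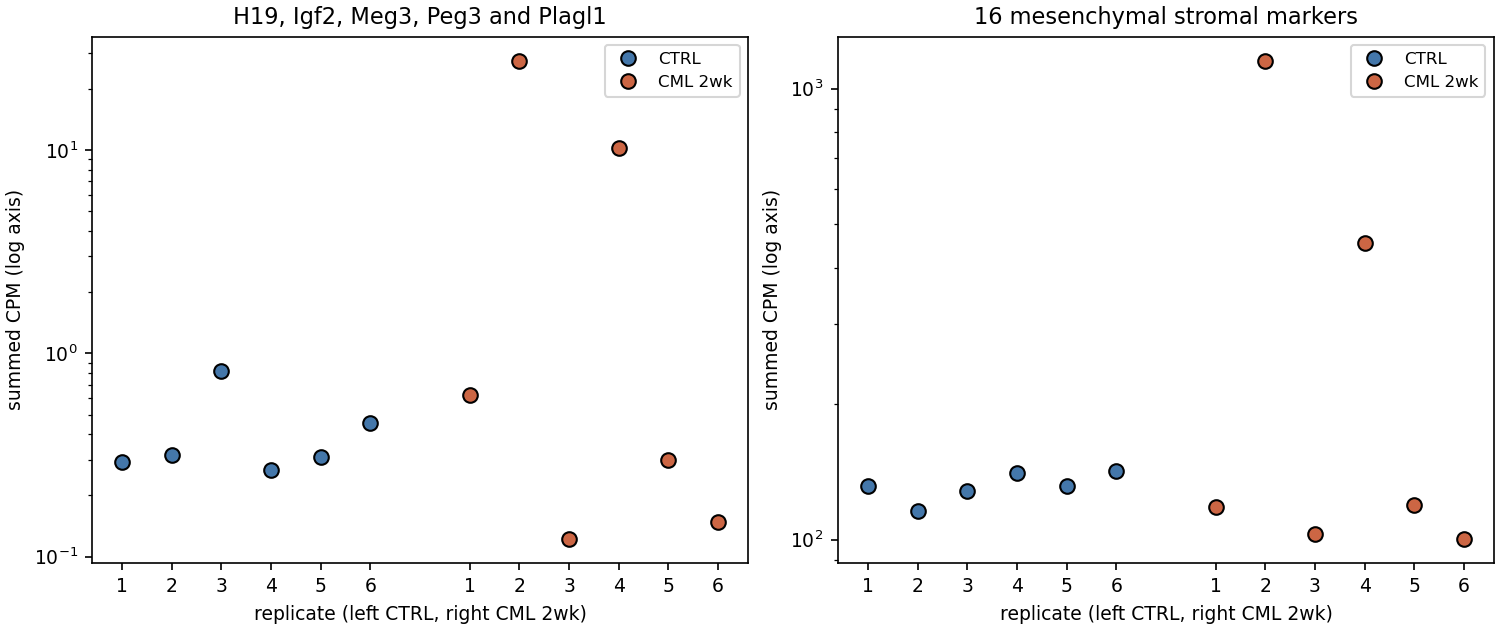
Summed CPM on log axes of H19, Igf2, Meg3, Peg3 and Plagl1 (left) and of 16 mesenchymal stromal markers (right) in each library by replicate. In both panels CML 2wk replicate 2 is highest (27.5 and 1153 CPM) and replicate 4 next (10.2 and 454 CPM), and the other 10 libraries lie at 0.122 to 0.822 CPM on the left and 100 to 142 CPM on the right.

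The 2 libraries that held nearly all CML 2wk counts of these 5 members were also the highest CML 2wk libraries in summed mesenchymal stromal markers. Stroma was not the only trait they shared. They were the highest in summed mast cell and basophil markers too, at 2884 CPM in replicate 2 and 1251 CPM in replicate 4, with 1087 CPM next in replicate 5. Igf2 had 0 counts in replicate 2, and Peg3 and Plagl1 were higher in replicate 4 than in replicate 2. Among the stromal markers, Lum (5.30 against 2.81 CPM) and Postn (7.41 against 6.765 CPM) were likewise higher in replicate 4. Of the 16 markers, 13 were highest of all 12 libraries in CML 2wk replicate 2, and 11 were also second highest in replicate 4. Of 11 tested, 6 were called higher in CML 2wk by edgeR and 0 lower, with 1 higher and 7 lower once replicates 2 and 4 were left out. Over all genes tested the shares were 30.6% higher and 29% lower, and 32% each way without those libraries. The collagen gene Col3a1 was at 274 CPM in replicate 2 and 78.2 CPM in replicate 4, which held 99.8% of its CML 2wk level. Col1a1 was at 220 and 89.1 CPM. Cxcl12, the chemokine that holds stem cells in the niche, was at 2.94 and 1.68 CPM and thus far lower than the collagens. In CTRL the median was 2.11 CPM for Cxcl12 and 0.89 CPM for Col3a1. The other 4 CML 2wk libraries had at most 2 counts of Cxcl12, at most 10 of Col3a1 and 0 of the matrix proteoglycan gene Lum. What part RNA of stromal cells or of mast cells and basophils had in the levels of H19, Igf2, Meg3, Peg3 and Plagl1 was not tested.

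Of the other genes of the Dlk1/Meg3 locus, Rian, Mirg, Rtl1 and Dio3 were, like Meg3, highest in CML 2wk replicate 2. Rian, a non-coding RNA transcribed downstream of Meg3, was at 15.2 CPM in CML 2wk replicate 2 and 3.46 CPM in replicate 4, with 84.3% of its CML 2wk level in these libraries. It was below the filter, but all 6 CML 2wk libraries, the lowest at 0.299 CPM, lay above the highest CTRL library at 0.177 CPM. Mirg was at 1.57 and 0.162 CPM, and the paternally expressed Rtl1 at 0.468 and 0.216 CPM. Dio3 was counted in replicate 2 alone, at 0.426 CPM. Begain, on the Dlk1 side of the domain and named after its values were seen, fell instead (log2 fold change -1.50, SE 0.361, adjusted p = 0.00239 in edgeR), with 0.723 CPM in replicate 2, 1.84 CPM in replicate 4 and a CTRL median of 2.57 CPM. The balance of Dlk1 over Meg3, as log2 of the ratio of counts with 0.5 added, was 1.58, 2.20, 0.82, 3.70, 2.15 and -0.21 in CTRL replicates 1 to 6. In CML 2wk it was 0.00, -3.79, 3.27, -4.54, 0.62 and 0.00, so the lowest values were again those of replicates 2 and 4. The groups overlapped. The difference in means was -2.45 (mean 1.71 ± 1.33 SD in CTRL and -0.74 ± 2.92 SD in CML 2wk, n = 6 each, two-sided exact permutation p = 0.104). Without replicates 2 and 4 it was -0.74 (exact p = 0.457), and without CML 2wk replicate 3 it was -3.25 (exact p = 0.026). The balance of Igf2 over H19 was not computed, since Igf2 exceeded 3 counts in a single library.

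Imprinted neighbours of the other members did not share a direction. At the Cdkn1c locus, Kcnq1ot1, the paternally expressed antisense RNA that silences the domain, rose (log2 fold change 0.76, SE 0.156, adjusted p = 6.88e-04 in edgeR), although the groups overlapped. Without strand its reads cannot be told from those of Kcnq1, within which it lies. Kcnq1 itself was below the filter, with 158 counts over all libraries against 155598 for Kcnq1ot1. Slc22a18 fell (-0.78, adjusted p = 0.00414 in edgeR) with no overlap, and Phlda2, a placental growth restrictor, fell (-1.52, SE 0.512, adjusted p = 0.0192 in edgeR) at a CTRL median of 0.974 CPM. Copg2, the neighbour of Mest, fell by 0.28 on the log2 scale (adjusted p = 0.0141 in edgeR). Ube3a, the ubiquitin ligase of the Ndn domain, was at -0.08 (adjusted p = 0.279 in edgeR) and did not pass. Peg12 of the same domain, named after its values were seen, fell without overlap (-0.94, SE 0.200, adjusted p = 9.76e-04 in edgeR), from a median of 5.83 CPM to 2.89 CPM. Magel2 and Snurf of that domain and Usp29 beside Peg3 had 0 counts, Snrpn had 8 over all libraries, and Zim1 beside Peg3 had 27 of its 28 counts in CML 2wk replicate 4. Ddc, which neighbours Grb10 and was singled out after its values were seen, rose (2.87, SE 0.360, adjusted p = 8.76e-06 in edgeR) from a CTRL median of 0.347 CPM to 2.9 CPM.

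Of 57 further imprinted genes, 37 were tested, of which 8 rose and 18 fell in CML 2wk by edgeR, with a median log2 fold change of -0.28. Without replicates 2 and 4, 5 rose and 21 fell. The shares over all genes tested were 30.6% higher and 29% lower, and 32% each way without those libraries. The genes with the smallest adjusted p were, in order, Peg13, Gab1, Trappc9 and Commd1. Peg13, a brain-enriched non-coding RNA, fell (-1.22, SE 0.113, adjusted p = 5.12e-07 in edgeR), as did Trappc9 (-0.71), the gene within which it lies. Gab1, a docking protein for receptor tyrosine kinases that is imprinted in placenta, fell (-1.50, SE 0.140, adjusted p = 5.53e-07 in edgeR). Commd1, a copper metabolism protein, rose (1.04, SE 0.117, adjusted p = 3.24e-06 in edgeR). The summed level of the 57 genes overlapped between groups, at 2186 to 2378 CPM in CTRL and 2050 to 2459 CPM in CML 2wk.

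Igf2 and Grb10 act in the insulin-like growth factor (IGF) pathway, whose receptors and downstream genes mostly fell. Of 14 tested genes of 22 in that list, 9 were lower and 2 higher by edgeR, where 29% of all genes tested were lower and 30.6% higher. The median log2 fold change of the 14 was -0.45. Foxo3, a transcription factor restrained by AKT and needed for stem cell quiescence, fell most clearly, from a median of 338 CPM to 130 CPM (-1.31, SE 0.0801, adjusted p = 2.43e-08 in edgeR). Akt2 (-0.59), the kinase subunit Pik3r1 (-0.51) and the insulin receptor Insr (-0.47) also fell, without overlap between groups. The IGF2 clearance receptor Igf2r fell (-1.16, SE 0.326, adjusted p = 0.00695 in edgeR), as did the signalling receptor Igf1r (-0.57, adjusted p = 5.87e-05), which was named after its values were seen. The 2 higher genes were the RNA-binding protein Igf2bp3 (0.91) and the secreted Igfbp7 (2.73, adjusted p = 0.0159 in edgeR). Igfbp7 was at 48.7 and 23.4 CPM in CML 2wk replicates 2 and 4 and was not called without them (-0.46, adjusted p = 0.147), when 10 genes of the list were lower and 1 higher.

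All 11 Cdkn1c partners were tested, of which 4 rose and 6 fell by edgeR. Among all genes tested 30.6% rose and 29% fell, the background for both lists of this paragraph. It was 32% each way without CML 2wk replicates 2 and 4. Cyclin D2 (Ccnd2) fell by 0.88 and Cdk2 by 0.62 on the log2 scale, while cyclin E1 (Ccne1) rose by 0.89 and Hspa8, the chaperone that binds p57 and cyclin D1, by 0.79. Of 16 imprint maintenance genes 14 were tested (Dppa3 had 0 counts and Dnmt3l was below the filter), of which 12 fell and 2, Eed and Tet2, rose, with a median log2 fold change of -0.67. Dnmt1, the maintenance DNA methyltransferase, fell from a median of 749 CPM to 341 CPM (-1.05, SE 0.0818, adjusted p = 1.35e-07 in edgeR). Dnmt3a (-0.82), which methylates new sites, Tet1 (-1.20), which oxidises methylcytosine, and Uhrf1 (-0.72), which recruits Dnmt1, fell too, none with overlap between groups. When replicates 2 and 4 were left out, 7 Cdkn1c partners fell and 4 rose, and 12 imprint maintenance genes fell and 3 rose, Dnmt3l (2.25) being tested and called there. The summed level of the 16 genes was 3332 to 3787 CPM in CTRL and 2240 to 2606 CPM in CML 2wk.

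**Figure D4:**
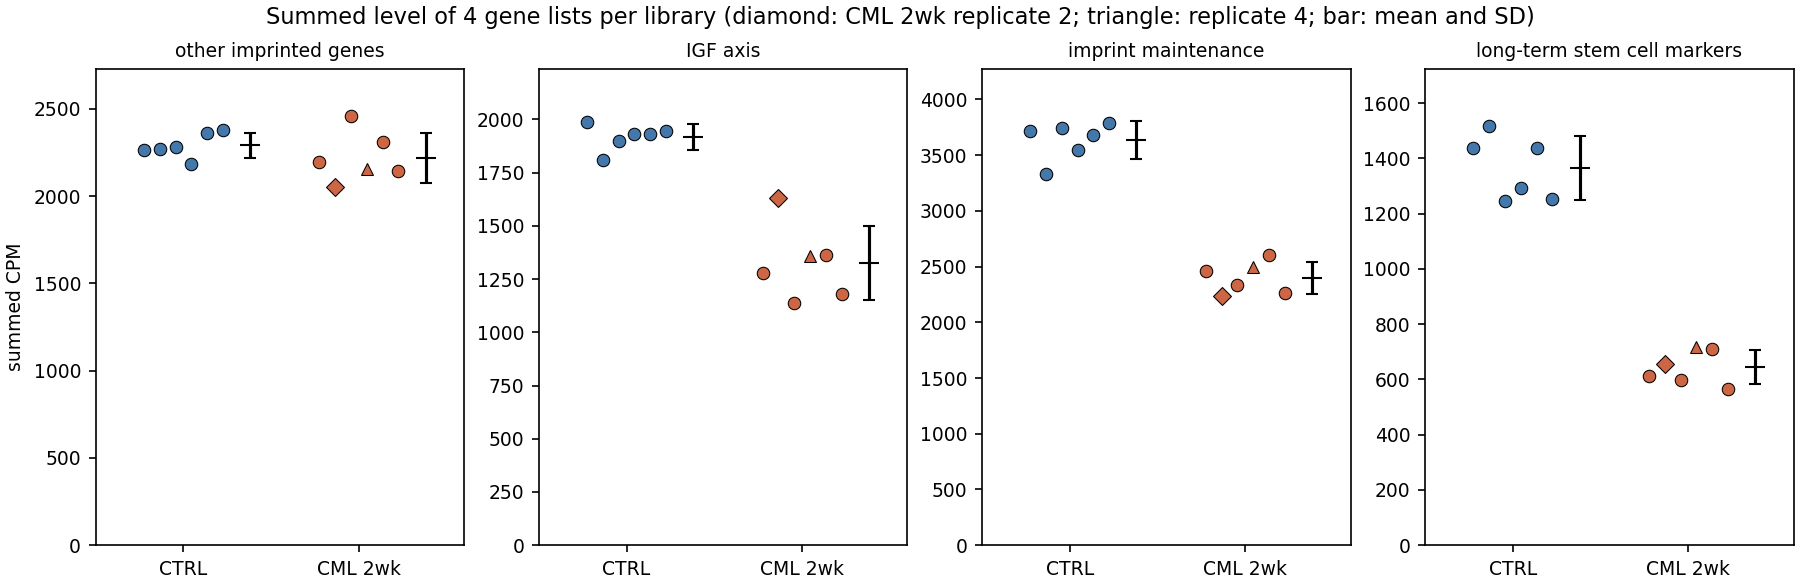
Summed CPM per library of 57 other imprinted genes, 22 IGF pathway genes, 16 imprint maintenance genes and 18 long-term stem cell markers, with mean and SD beside each group. The groups overlap for the imprinted genes and are apart for the other 3 lists, and CML 2wk replicates 2 (diamond) and 4 (triangle) lie below every CTRL library in those 3.

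Markers of cell types and of cycling moved between the same groups, and their part in the member levels was not tested. As background to the counts below, 30.6% of all genes tested rose and 29% fell by edgeR. That was 32% each way without CML 2wk replicates 2 and 4. Of 17 tested long-term stem cell markers of 18, 13 fell and 0 rose by edgeR, and their sum was 1246 to 1518 CPM in CTRL and 566 to 716 CPM in CML 2wk. The transcription factor Hlf (-1.64) and Vwf (-2.66), which encodes von Willebrand factor, were among those that fell. Of 12 proliferation markers 5 fell and 3 rose, with Mki67, Plk1, Tpx2 and Top2a among the lower and Ccnb1, Bub1 and Cdk1 the higher. Their sum was 3400 to 4128 CPM in CTRL and 2085 to 2627 CPM in CML 2wk, but without the abundant Mki67 and Top2a the sum of the other 10 overlapped, at 897 to 1101 CPM and 928 to 1156 CPM. Of 10 erythroid and megakaryocyte markers 9 fell, led by Pf4 (-2.99) and Klf1 (-2.35), at sums of 319 to 350 CPM and 115 to 269 CPM. Of 10 mast cell and basophil markers 7 rose and 1, Gata2, fell, led by Mcpt8 (2.43) and Tpsb2 (7.53), at sums of 325 to 450 CPM and 544 to 2884 CPM. Of 10 monocyte and macrophage markers 3, Ccr2, Cd14 and Fcgr1, rose, and of 10 endothelial markers 4 fell and 1, Flt1, rose. Without CML 2wk replicates 2 and 4, 2 monocyte and macrophage markers and 5 endothelial markers fell, and the counts that rose were 3 and 1.

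The genes most like each tested member were sought among 13442 genes by Pearson's r of log2 CPM over the 12 libraries, after the group means were taken out. The points share libraries and depth, so the values describe these libraries only. Nearest to Grb10 were Idua (r = 0.961), Zdhhc2 (0.942) and Kcnk5 (0.931), and r for Idua was 0.974 without CML 2wk replicate 2. Nearest to Cdkn1c were Kctd2 (0.974), Rab11fip5 (0.961) and Lrp1 (0.960), and r for Kctd2 was 0.925 without that library. Nearest to Ndn were Fv1 (0.940), Obsl1 (0.935) and Cd9 (0.933). Dlk1 was most like 5730409E04Rik (0.939) and Dnaja4 (0.930), and Mest most like 4930432K21Rik (0.897), Rab11fip2 (0.894) and Gm14295 (0.885).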

How the data were processed

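The authors deposited 1 table of raw counts per library, whole reads per Ensembl gene, made with featureCounts. The submitters' processing notes name FastQC 0.11.9, fastp 0.23.2, STAR 2.7.10a, featureCounts 2.0.1 and DESeq2 1.36.0 and the builds mm39 and GRCm39, whereas the paper's methods for bulk RNA-seq name Trim Galore!, HISAT2 and a human build. The annotation release, the strand setting and the treatment of multimapping reads are not given in the sources used here. Counts of overlapping genes are therefore uncertain, and no gene coordinates are given. Symbols and exon lengths came from GENCODE M21 by Ensembl identifier, with 52073 of 56748 identifiers matched and 4675 unmatched. Entries that name no gene numbered 0. No pair of libraries agreed within sampling noise (lowest chi-square per degree of freedom 4.07).

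Genes passing filterByExpr (minimum count 10) were fitted on the counts, with TMM factors for library size, by the quasi-likelihood method of edgeR 4.0.16 in R 4.3.3. Calls used a threshold of 0.05 on p-values adjusted over all 18438 genes (Benjamini-Hochberg). Log2 CPM used a prior count of 2, and intervals and floors cover counting error only. Exact permutation tests used every split of the libraries (scipy 1.17.1, Python 3.11.15, numpy 2.4.6, pandas 2.3.3, matplotlib 3.10.9). RPKM values were computed from the deposited counts and exon lengths. Alternatives were DESeq2 1.42.0, other factors and filters, a replicate block, thinned counts and libraries left out. Leaving out CML 2wk replicates 2 and 4 without a filter, and in the exact tests and the Dlk1 over Meg3 balance, was added after seeing the data. On simulated counts edgeR recovered 75 of 96 genes changed 2-fold and 101 of 101 changed 4-fold, with 8 false calls among 18272 genes. The simulation changed only 197 of these genes, at a fixed dispersion per group and with no outlying library. In the data 59.5% of genes were called, so its rates need not hold there. Groups came from the sample labels. The members, the gene lists and the tests were chosen with earlier results of these data known. All members are named, and of each other list up to 4 genes by smallest adjusted p, set neighbours of the member loci, and up to 3 genes most like each tested member. Some genes that this rule names are not reported here. Promoter windows were taken from RefSeq (GRCm38.p6).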

Additional observations from a re-analysis of the deposited data

Results flagged for a closer look

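In 46 groups of 6 libraries examined, over the members and the summed lists, 9 held a library far from the others. For independent normal values the rule used would flag about 1 in 20 groups, or 2.3. The CPM values here are skewed, often sparse and from the same libraries throughout, so that rate does not apply and the count is only descriptive. Of the 9, 5 were CML 2wk replicate 2. Its level was 23.1 CPM for Meg3 against 4.38 CPM in the next library, and 5.87 CPM for Cdkn1c against 2.28 CPM. Its summed level was 1150 CPM for mesenchymal stromal markers (next 454), 2880 CPM for mast cell and basophil markers (next 1250) and 269 CPM for erythroid and megakaryocyte markers (next 156). CML 2wk replicate 4 stood apart for Igf2, at 0.379 CPM with every other CML 2wk library at 0, and for Peg3, at 2.11 CPM against 0.468 CPM. CTRL replicate 3 stood apart for H19, at 0.374 CPM against 0.0792 CPM, and for Igf2, at 0.0747 CPM against 0.0241 CPM, which rest on 10 and 2 counts.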

How the results depend on the processing

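The number of genes called, 10976, was 10185 to 12007 when each library was left out in turn and stayed within 1.5 times under every alternative. Of the members, 2 were called, and 4 without a filter, 4 with DESeq2, 4 without a filter and without CML 2wk replicates 2 and 4, 1 with a minimum of 1 CPM in 6 libraries, 1 with thinned counts, 1 without both sixth libraries, and 1 to 3 when each library was left out in turn. The 2 stricter settings tested 3 and 4 members. The number of members without overlap, 0, was 0 to 1 when each library was left out: Ndn without CTRL replicate 6, Cdkn1c without CML 2wk replicate 2 and Grb10 without CML 2wk replicate 6. The Dlk1 over Meg3 balance ranged from -3.25 to -1.69 and was -0.74 without CML 2wk replicates 2 and 4. Dlk1 itself ranged from 0.0112 to 0.83. Mest, at 0.08, ranged from -0.0568 to 0.18 when each library was left out and turned negative without CML 2wk replicate 1 (-0.0001) or 5. Plagl1 turned to 0.15 with a prior count of 5. Without CML 2wk replicates 2 and 4, H19 turned to -0.45, Igf2 to -0.23 and Peg3 to -0.61. The causes were not tested. With the replicate number as a block (replicate block), 9975 genes were called, 4786 higher and 5189 lower, and the member calls were 2. Same-numbered libraries did not deviate together in expression (correlations -0.125 to 0.068, 1 of 6 best with its own number). Such correlations cannot exclude that equal numbers share a preparation. Depth limits the 5 members under the filter, whose CTRL counts were at most 10.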
